A study of Mus musculus with 6 samples.

Results

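The clustered protocadherins were followed in mouse tissue labelled as lens ectoderm, of embryonic day 9.5, cut out by laser and hybridised to 3 wild-type (WT) and 3 knockout (KO) Illumina bead arrays. Their 58 probes, of 46632 on each array, were chosen by name alone, as all probes whose platform gene symbol belongs to the alpha, beta or gamma protocadherin cluster, and they name 49 of the 17711 genes with a named probe. The family was singled out because an earlier look at these arrays had found Pcdhb3 on WT arrays only, so the genotype difference of Pcdhb3 is described here without a test. WT samples are labelled wild type and KO samples BMPR KO, with titles that call the line ALK23, the protein names of the type I bone morphogenetic protein (BMP) receptors ALK2 (Acvr1) and ALK3 (Bmpr1a). Every sample came from a mixed C57BL6 and FVB background. Per the labels, the pieces were cut from sections of 10 microns, the tissue is prospective lens or retina, and 15 ng of RNA was amplified per array. The series text says that RNA was pooled. No source used here gives the Cre driver, the exons removed or how many embryos went into a sample, so a p-value reflects only the variation among these 6 samples, part of which may be technical.

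Clustered protocadherins are cadherin-family membrane proteins that bind their own kind on facing cells, and their combinations give neurons a cell-surface identity used in self-avoidance of dendrites. The genes lie in tandem on mouse chromosome 18, in the order alpha, beta, gamma. In the alpha and gamma clusters each variable exon has its own promoter and is spliced to constant exons shared by the whole cluster, whereas beta genes are each a single exon. Single neurons are known to switch on a seemingly random subset of isoforms through promoter choice that depends on CTCF and cohesin, while the C-type isoforms at the end of the alpha and gamma clusters are used more evenly. Gamma protocadherins are best known in the eye from retinal neurons, which need them for survival and for the spacing of starburst amacrine cell dendrites. A bulk sample averages over all cells of a piece, and fewer expressing cells cannot be told apart from less RNA per cell.

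Bead number was similar across the arrays, with a median of 35 or 36 beads per probe, but it does not measure RNA quality. At a detection p below 0.05, 39.6% (WT 2) to 45.7% (KO 1) of all probes were detected. The detection p is the authors' comparison of a probe with the negative control probes of its array. By construction of that threshold, about 5% of probes with no target would be detected on each array. At a detection p below 0.01 the arrays differed more, from 11028 probes (WT 2) to 13706 (WT 1). Median raw intensity ran from 74.5 (WT 2) to 90.7 (WT 1). Array pairs correlated at 0.820 to 0.940 over the tested probes, and WT 2 took part in the lowest values. The receptor probes could not check the genotype labels, as their place relative to the deleted exons is unknown here. On the log2 scale the Acvr1 probe detected on all 6 arrays had a WT mean of 7.65 ± 1.05 and a KO mean of 6.91 ± 0.53 (SD, n = 3). Of the other Acvr1 probes, ILMN_1223443 was detected on KO 3 alone and ILMN_2442705 on 0 arrays. For the Bmpr1a probe ILMN_1251119 the means were 9.58 ± 0.36 and 9.70 ± 0.11 (SD, n = 3), and for ILMN_2653312 they were 9.52 ± 0.31 and 9.44 ± 0.23 (SD, n = 3), so the Bmpr1a probes ran opposite ways. Of the lens ectoderm markers, 8 of 10 were measured, while Foxe3 and Pitx3 were detected on at most 2 arrays.

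The gamma cluster held the members most often detected in these samples. Of 23 gamma probes, 17 were detected on at least 1 array and 4 on all 6 arrays, the probes of Pcdhgc3, Pcdhga12, Pcdhgc5 and Pcdhgb4. The beta cluster was mostly undetected, with 19 of 26 probes detected on no array and 0 on all 6. In the alpha cluster 5 of 9 probes were detected on at least 1 array and 0 on all 6, and 4 of those 5 were the probes of Pcdha5. Over the clusters, 29 of 58 probes (50.0%) were detected on no array, against 41.4% of all probes on the arrays, and 4 (6.90%) on all 6, against 29.6%.

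**Figure D1:**
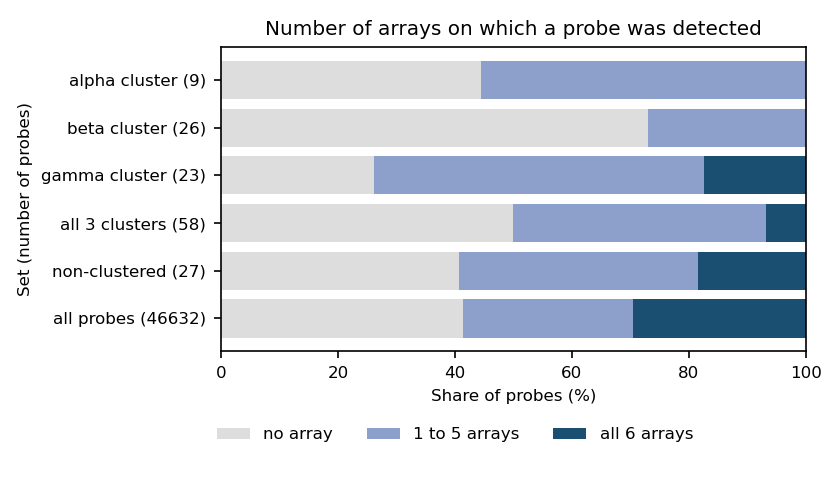
Share of probes (x axis, %) detected on no array, on 1 to 5 arrays or on all 6 arrays at a detection p below 0.05, for each protocadherin set and for all probes (y axis, with the number of probes). The gamma cluster holds the 4 members detected on all 6 arrays, while 73.1% of beta probes were detected on none.

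Of the genes, 24 were detected on no array by any probe. They were 15 beta genes (Pcdhb1, Pcdhb4 to Pcdhb9, Pcdhb11, Pcdhb13, Pcdhb15, Pcdhb16 and Pcdhb18 to Pcdhb21), 4 alpha genes (Pcdha1, Pcdha3, Pcdha8 and Pcdha12) and 5 gamma genes (Pcdhga3, Pcdhgb1, Pcdhga5, Pcdhga8 and Pcdhga9). The 29 probes detected on no array lay between 5.09 and 5.72 on the normalized log2 scale. Differences among these undetected values carry no information on the transcript. The top of the band reached above the lowest detected value of KO 1 (5.63), KO 2 (5.71), KO 3 (5.65) and WT 3 (5.65). A further 9 genes of the current gene table have no probe of their name on the array and were not analysed here, namely Pcdha2, Pcdha4, Pcdha6, Pcdha7, Pcdha9, Pcdha10, Pcdha11, Pcdhac2 and Pcdhga11.

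Pcdhgc3 was the steadiest of the 4 gamma probes detected on every array. Pcdhgc3 is a C-type isoform known from many tissues outside the nervous system, but whether its probe reads that isoform alone is unknown here. Its WT arrays, given here and below in the order 1, 2, 3, read 10.31, 10.32 and 10.42, and its KO arrays 10.61, 10.47 and 10.14, all as normalized log2 intensities. The KO values lay on both sides of the WT values. Its log2 fold change, KO minus WT, was 0.06 (limma adjusted p = 0.993), and its 95% interval ran from -0.32 to 0.44, so a 2-fold difference of the signal in either direction lay outside the interval. The sign depended on single arrays, with -0.045 without KO 1. Pcdhga12, the last A-type gamma gene, was at 9.32, 9.43 and 8.62 (WT) against 9.57, 10.09 and 8.85 (KO). The genotypes overlapped, and the log2 fold change was 0.38 (interval -0.43 to 1.19, limma adjusted p = 0.989). It was 0.086 without KO 2, 0.13 without WT 3 and 0.71 without KO 3.

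A probe of Pcdhgc5, a C-type isoform, and a probe of Pcdhgb4, a B-type isoform, shared their profile over the arrays. Pcdhgc5 (ILMN_1216284) was at 8.25, 7.88 and 8.40 across WT arrays, then 8.74, 7.78 and 7.19 across KO. Pcdhgb4 (ILMN_1241991) was at 8.17, 7.56 and 8.19 (WT) against 8.58, 7.79 and 7.17 (KO). Both were highest on KO 1 and lowest on KO 3, so the spread lay within the KO group rather than between genotypes. Across the 6 arrays their Pearson correlation was 0.975, the highest of the 91 pairs of tested members, for which the median was 0.11. This pair was picked after the values were seen, the arrays share normalization, and 3 other tested probes of the array correlated more closely with the Pcdhgb4 probe, since the Pcdhgc5 probe ranked at place 4 of 20958. The second probe of each gene behaved otherwise. The second Pcdhgc5 probe (ILMN_2672878) was detected on 0 arrays, and the second Pcdhgb4 probe (ILMN_2685642) on WT 1 alone, at 6.26. Which probes lie in variable exons and which in the constant exons common to a cluster is unknown here, and a constant-exon probe would read many isoforms under 1 name.

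**Figure D2:**
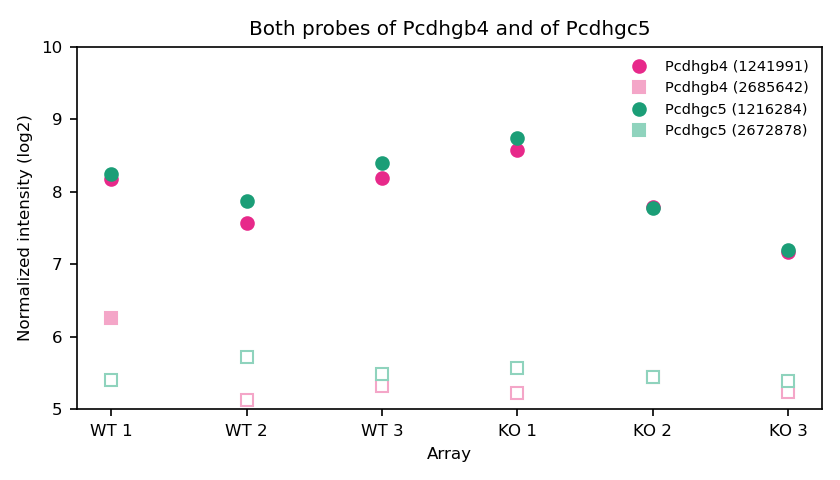
Normalized log2 intensity (y axis) of both probes of Pcdhgb4 and of Pcdhgc5 on each array (x axis). Filled symbols mark detected and open symbols undetected values. The probes drawn as circles, detected on every array, move together, from 8.58 and 8.74 on KO 1 to 7.17 and 7.19 on KO 3, while the second probe of each gene stays near the floor except Pcdhgb4 on WT 1.

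Neither Pcdhgc5 nor Pcdhgb4 differed between genotypes beyond the spread of the arrays. The log2 fold change was -0.27 for Pcdhgc5 (interval -1.29 to 0.75) and -0.13 for Pcdhgb4 (interval -1.15 to 0.89), and without KO 3 both turned positive, to 0.085 and 0.21. The limma adjusted p was 0.989 for Pcdhgc5 and 0.994 for Pcdhgb4.

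Pcdhb3 was the member with the clearest genotype split. The raw intensity was 176, 144 and 140 on WT 1 to WT 3, with bead standard errors of 8.67, 9.60 and 5.72, and 84.0, 68.0 and 81.7 on KO 1 to KO 3, with bead standard errors of 5.26, 3.06 and 4.19. All WT arrays were above all KO arrays, and the lowest WT value exceeded the highest KO value by 7.16 times the combined bead standard error, which measures the error within an array and not between samples. On the normalized log2 scale the gene was at 6.80, 6.75 and 6.44 across WT arrays, then 5.53, 5.36 and 5.47 across KO, or 6.66 ± 0.20 against 5.45 ± 0.08 (SD, n = 3). Pcdhb3 was detected on all 3 WT arrays and on 0 of 3 KO arrays, so the KO level is only a bound. On these arrays, and on the scale with an offset of 16, the WT mean was at least 2.01-fold higher. That bound sets the mean of the WT arrays against, on each KO array, the lowest signal among detected probes. It includes no sampling error and depends on the offset, so it is no lower limit for the genotype difference. The WT signals were close to the detection limit themselves. Their detection p was 0.00873 on WT 1, 0.0181 on WT 2 and 0.0156 on WT 3, so at a detection p below 0.01 Pcdhb3 was detected on WT 1 alone.

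**Figure D3:**
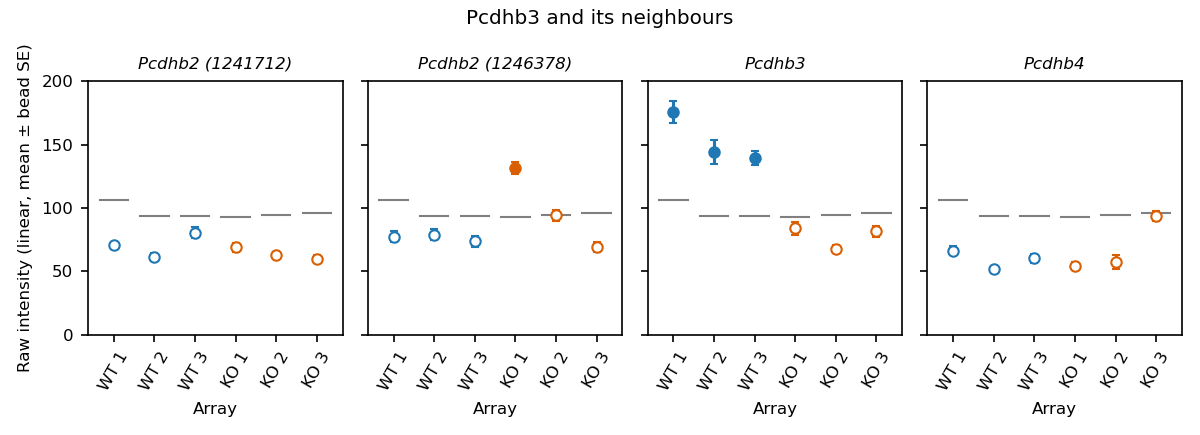
Raw intensity (y axis, linear, mean ± standard error over beads) on each array (x axis) for Pcdhb3 and for its neighbours in the beta cluster, Pcdhb2 (both probes) and Pcdhb4. Filled points are detected, open points are not, and grey bars mark the lowest detected intensity of each array. Pcdhb3 lies at 140 or more on every WT array and at 84.0 or less on every KO array, while Pcdhb2 and Pcdhb4 stay below the grey bars except for 1 Pcdhb2 probe on KO 1.

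The same split was rare on the arrays and ran more often the other way. Detection on all WT and no KO arrays occurred for 34 of 46632 probes (0.0729%), and detection on all KO and no WT arrays for 179 (0.384%). Pcdhb3 was the only member with the first pattern, and 0 members had the second. Its neighbours along the beta cluster did not share it. Pcdhb4 was detected on no array, and of the Pcdhb2 probes ILMN_1241712 was detected on no array and ILMN_1246378 on KO 1 alone, at a raw 132 against 94.4 or less on the other arrays. The 14 tested members were those detected on at least 3 of 6 arrays. Among them Pcdhb3 was the only one whose WT and KO arrays did not overlap. Pcdhb3 was the gene the family was chosen for and passed that filter through its WT arrays alone, so this restates the choice. Over all 20959 tested probes 9.82% did not overlap, 4.44% with KO lower.

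**Figure D4:**
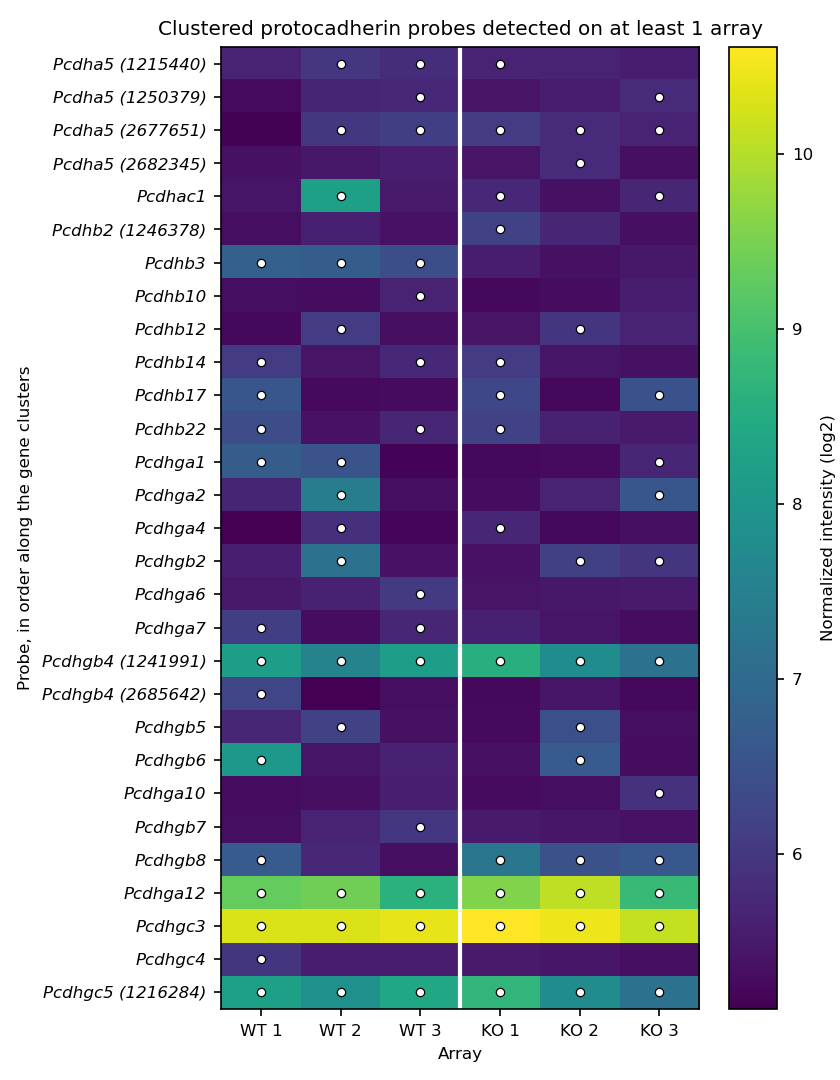
Normalized log2 intensity (colour) of the 29 probes detected on at least 1 array (rows, in their order along the clusters) on each array (columns, WT left and KO right of the white line), with white dots marking detection. Pcdhgc3, Pcdhga12 and 1 probe each of Pcdhgc5 and Pcdhgb4 carry dots on all 6 arrays, Pcdhb3 only on the WT arrays, and most other rows on 1 to 3 arrays.

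Most members that were detected at all were not detected on every array. Of 58 probes, 25 (43.1%) were detected on some arrays and not on others, against 29.0% of all probes, and 24 of these 25 were split within WT, within KO or within both. The exception was Pcdhb3. That share, 96.0%, was 98.4% over all probes detected on some arrays only. The share of partly detected members depended on the threshold: at a detection p below 0.01, 6 members (10.3%) were detected on some arrays only, against 19.0% of all probes. These were Pcdhac1, Pcdhb3, Pcdhga1, Pcdhga2, Pcdhgb6 and Pcdhgb8. For 14 of the 25 probes the lowest detected and the highest undetected raw intensity differed by more than 3 combined bead standard errors (56.0%, against 52.4% of all probes split in this way), and for 9 by less than 2.

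Pcdhac1, Pcdhgb6 and Pcdhga2 had the widest ranges over the arrays, each through 1 or 2 high arrays. Pcdhac1, a C-type alpha isoform, had a raw intensity of 324 on WT 2, with a bead standard error of 12.6 over 51 beads, against 68.3 to 102 on the other arrays. On the log2 scale it was at 5.44, 8.25 and 5.52 (WT) against 5.72, 5.37 and 5.71 (KO), so WT 2 alone was high and the fold change of -0.80 (interval -2.35 to 0.75, limma adjusted p = 0.989) turned to 0.12 without WT 2. Pcdhgb6, a B-type gamma isoform, was at 8.04, 5.42 and 5.62 across WT arrays, then 5.36, 6.69 and 5.30 across KO. It was detected on WT 1 and KO 2 only, with raw intensities of 338 and 161 against 91.3 or less elsewhere. Pcdhga2 was at 5.68, 7.43 and 5.31 (WT) against 5.29, 5.66 and 6.59 (KO), and was detected on WT 2 and KO 3. In each case the high arrays lay apart from the rest without following the genotype. Pcdhgb5 was detected on WT 2 and KO 2, at 6.18 and 6.46. Pcdhga7 was detected on WT 1 and WT 3, at 6.14 and 5.70, and on 0 KO arrays, where its detection p was 0.0574 or more. Only 3 of 58 members (5.17%) had an array at least 2-fold above every other array, Pcdhac1 and Pcdhgb2 on WT 2 and Pcdhgb6 on WT 1, against 4.66% of all probes, of which 40.0% had WT 2 as that array.

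WT 2 also differed from the other WT arrays in markers of adjoining tissue. Of 12 optic vesicle markers 8 were measured, and their summed normalized intensity was 597 on WT 2, against 3471 on WT 1 and 3571 on WT 3 and 1182 to 2377 in KO. Tyrp1 and Vax2, of the same list, were each detected on 1 array at most. Dct, an enzyme of pigment cells in that list, was at 9.85, 5.34 and 9.80 across WT arrays, then 9.21, 5.71 and 7.13 across KO. Pmel, also in that list, was at 9.85, 6.16 and 9.31 (WT) against 9.51, 5.97 and 5.75 (KO). Low values of these genes were thus not particular to WT 2. The summed lens ectoderm markers were 10614 on WT 2, between 6915 and 8009 on the other WT arrays, and between 7436 and 10812 in KO. The part of tissue composition in the WT 2 levels of Pcdhac1, Pcdhgb2 and Pcdhga2 was not tested.

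Among the remaining gamma members, Pcdhgb2 was at 5.57, 7.17 and 5.38 across WT arrays, then 5.39, 6.17 and 5.96 across KO. It was detected on WT 2, KO 2 and KO 3, and its fold change of -0.20 (interval -1.28 to 0.89) turned to 0.37 without WT 2 and to 0.025 without KO 1. Pcdhga1, the first gene of the gamma cluster, was at 6.73, 6.52 and 5.16 (WT) against 5.23, 5.28 and 5.71 (KO), and was detected on WT 1, WT 2 and KO 3. The fold change of Pcdhga1 was -0.73 (interval -1.64 to 0.18), with -1.22 without WT 3 and -0.43 without WT 1. Pcdhgb8 was the tested member with the largest positive difference. It was at 6.69, 5.75 and 5.34 across WT arrays, then 7.28, 6.47 and 6.61 across KO, and reached detection on every KO array but only on WT 1 among the controls. The genotypes overlapped through WT 1, and the fold change was 0.86 (interval -0.16 to 1.89), from 0.57 without WT 3 to 1.24 without WT 1. The limma adjusted p was 0.989 for Pcdhga1 and Pcdhgb8 and 0.993 for Pcdhgb2.

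The other tested beta members, Pcdhb17, Pcdhb22 and Pcdhb14, were each detected on 3 arrays. Pcdhb17 was at 6.58, 5.25 and 5.28 (WT) against 6.28, 5.23 and 6.50 (KO). It was detected on WT 1, KO 1 and KO 3, at raw intensities of 158, 137 and 164 and detection p of 0.0119, 0.0181 and 0.0131. The fold change was 0.30 (interval -0.73 to 1.33), with 0.74 without WT 1 and 0.051 without KO 3. Pcdhb22 and Pcdhb14 were each detected on WT 1, WT 3 and KO 1. Pcdhb22 was at 6.41, 5.39 and 5.71 across WT arrays, then 6.21, 5.62 and 5.51 across KO, with a fold change of -0.06 (interval -0.79 to 0.68). Pcdhb14 was at 6.06, 5.40 and 5.74 (WT) against 6.09, 5.43 and 5.36 (KO), with a fold change of -0.11 (interval -0.72 to 0.51). Both were highest on WT 1 and KO 1, and both signs turned without WT 1, to 0.23 and 0.056, and without KO 3, to 0.079 and 0.025. Without KO 2 the Pcdhb22 value was 0.021. WT 1 and KO 1 were also the arrays with the highest summed endothelial markers, 1267 and 1676 against 530 to 983 on the others. Of that list 5 of 8 markers were measured, and the endothelial receptors Tek and Tie1 were detected on no array. Emcn was highest on WT 1 and KO 1, but Cldn5 and Pecam1 were higher on WT 3 than on WT 1, and Flt1 and Kdr higher on KO 2 than on KO 1. Lens ectoderm markers summed lowest on WT 1 and KO 1, to 6915 and 7436 against 8009 to 10812 on the others. Blood markers summed highest on WT 1 and KO 1, to 11538 and 10226 against 5217 to 8230. Non-clustered protocadherins did so too, with 1572.5 and 1659 against 784 to 1299.5. For neuronal markers the sums were 796 and 715 against 569 to 701, so KO 1 was little above the others. Periocular mesenchyme markers, 7 of 10 measured, also summed highest there, to 6759 and 5809 against 4137 to 4459, but their mean log2 level was 8.95 on WT 3, against 9.17 on WT 1 and 8.94 on KO 1. The part of these tissues in the Pcdhb14 and Pcdhb22 signal was not tested. The limma adjusted p of the 3 genes lay between 0.989 and 0.995.

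Pcdha5 was the only alpha gene besides Pcdhac1 with a detected probe. Its 4 probes were detected on 3, 2, 5 and 1 of the 6 arrays. The most often detected, ILMN_2677651, was at 5.14, 6.0045 and 6.13 across WT arrays, then 6.10, 5.80 and 5.67 across KO. It missed detection on WT 1 alone, where 0 of the 9 alpha probes were detected, against 2 or 3 on every other array. The fold change of this probe was 0.10 (interval -0.59 to 0.79), with -0.21 without WT 1 and -0.024 without KO 1. ILMN_1215440 was at 5.64, 5.98 and 5.84 (WT) against 5.66, 5.67 and 5.54 (KO), with a fold change of -0.19 (interval -0.64 to 0.25), between -0.28 and -0.11 without each array. Its lowest detected raw intensity (95.6 on KO 1) was below its highest undetected one (97.5 on WT 1), since the detection limit differs between arrays. The limma adjusted p was 0.993 for the first and 0.989 for the second probe.

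**Figure D5:**
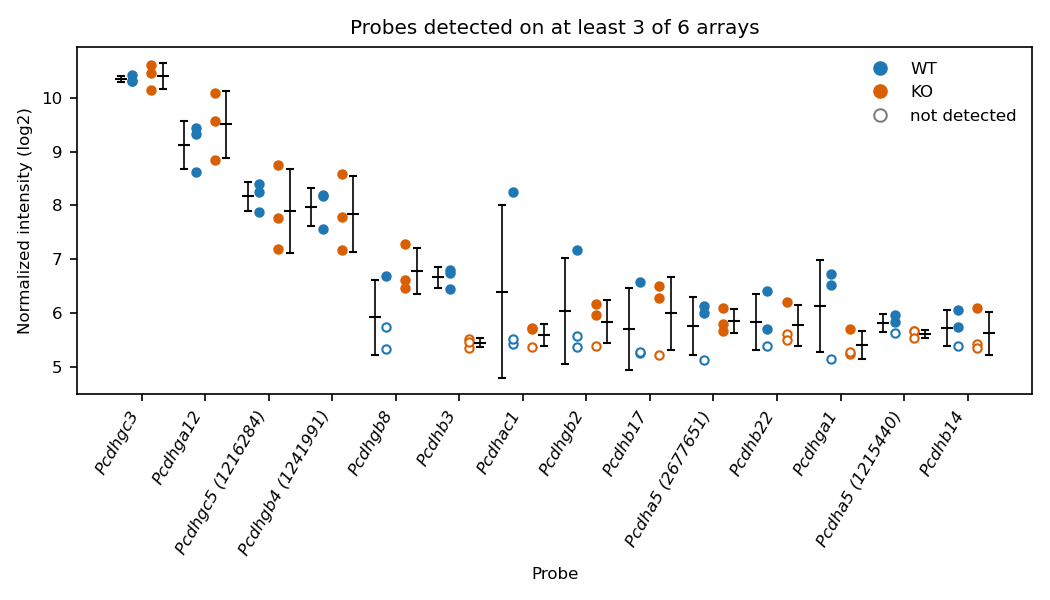
Normalized log2 intensity (y axis) of the 14 probes detected on at least 3 of 6 arrays (x axis), 1 point per array, WT in blue and KO in orange, with open points for undetected values and black bars for the mean ± SD (n = 3). The genotypes overlap for every probe shown except Pcdhb3, and the wide bar of Pcdhac1 comes from WT 2.

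As a family, the clustered protocadherins showed no detectable genotype difference. Over all 20959 tested probes 0 (0.0%) passed a limma adjusted p of 0.05, and 4.49% had an unadjusted p below 0.05. Of the 13 tested members other than Pcdhb3, 0 passed the adjusted threshold and 0 had an unadjusted p below 0.05, with 5 positive and 8 negative fold changes. Their intervals stayed inside a 2-fold change in either direction for 5 of 13, against 40.7% of all tested probes. For the other 8 a 2-fold difference was not excluded at this precision. Of the 5, Pcdhgc3 alone was detected on all 6 arrays. The rest were both tested Pcdha5 probes, Pcdhb14 and Pcdhb22, which lie near background with undetected values among their arrays. Their fold changes are compressed by the offset, so these intervals bound the signal and not the transcript. The median log2 fold change of the 14 tested members was -0.12, or -0.11 without Pcdhb3, and 0.01 over all tested probes. It was 0.065 without KO 3. The median residual SD of the members was 0.55, against 0.43 over all tested probes, whose median level was higher (7.30 against 5.97).

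The number of members detected per array was 14 on each WT array and 13, 11 and 13 on KO 1 to KO 3. Without Pcdhb3 it was 13 on each WT array, so that KO 2 alone was lower. All-probe detection ran the other way, at 39.6% to 44.7% in WT and 43.0% to 45.7% in KO. By cluster, the mean of the tested gamma probes was 7.67 ± 0.28 in WT and 7.67 ± 0.27 in KO (log2, SD, n = 3), a difference of -0.0035. The tested alpha probes had 5.99 ± 0.68 and 5.69 ± 0.12, a difference of -0.30 that turned to 0.076 without WT 2. For the beta probes the values were 5.98 ± 0.42 and 5.71 ± 0.31, a difference of -0.27, which shrank to -0.030 without WT 1 and to -0.12 without KO 2. Without Pcdhb3, an alternative added after seeing the data, the beta difference was 0.044, so the sign turned without the member the family was chosen for. The gamma and beta differences were within the SD of both groups, and the alpha difference within that of WT only.

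The non-clustered protocadherins, single genes outside the tandem arrays, gave no call. Of 12 genes, 8 were measured, with 3 positive and 5 negative fold changes, a median of -0.24 and 0 passing. Pcdh1, an epithelial adhesion molecule, was at 6.26, 5.87 and 5.84 across WT arrays, then 7.34, 7.25 and 6.47 across KO. Its KO arrays all lay above its WT arrays, with a fold change of 1.03 (interval 0.11 to 1.95, limma adjusted p = 0.989) and 0.76 from its second probe. Pcdh10, a delta-protocadherin of the developing nervous system, was at 8.72, 7.25 and 7.08 (WT) against 8.42, 6.66 and 5.22 (KO), with a fold change of -0.92 (interval -2.80 to 0.96, limma adjusted p = 0.989). Pcdh9, chosen after its values were seen, likewise did not overlap, with 0.88 (interval 0.15 to 1.61, limma adjusted p = 0.989). Its probe was detected on 3 KO arrays and 1 WT array, so it passed the filter through its KO arrays. Pcdh1 and Pcdh9 were 2 of 8 genes, against 9.82% of all tested probes. Of the 27 probes of this family, 18.5% were detected on all 6 arrays and 40.7% on some only.

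Genes that act on promoter choice in the clusters gave no call. Of 18 chromatin regulators 16 were measured, 7 with positive and 9 with negative fold changes, a median of -0.05 and 0 passing. Ctcf, the insulator protein that loops cluster promoters to their enhancers, averaged 9.04 ± 0.08 over WT and 8.96 ± 0.29 over KO arrays (SD, n = 3). The cohesin subunit Rad21 had 12.15 ± 0.16 and 12.07 ± 0.02, with a fold change interval from -0.33 to 0.17, within a 2-fold change. The members with the largest differences were Setdb1, a histone H3 lysine methyltransferase, at 0.73 (interval -0.25 to 1.72), and Stag1, a cohesin subunit, at 0.53 (-0.56 to 1.63), whose other probes gave -1.01 and -0.12. The genotypes did not overlap for 2 of 16, Setdb1 with KO higher and Pds5b with KO lower, against the same 9.82%.

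Partners and proteases of protocadherins were measured for 6 of 11 genes, 1 with a positive and 5 with negative fold changes, a median of -0.21 and 0 passing. Pdcd10, a cytoplasmic adaptor that binds clustered protocadherins, had the largest difference, -0.83 (interval -1.82 to 0.16). Psen2, a catalytic subunit of the gamma-secretase that cuts protocadherins, had -0.50 (interval -1.23 to 0.24). The genotypes did not overlap for 2 of 6, Pdcd10 with KO lower and Adam10 with KO higher, against 9.82% of all tested probes. The second Adam10 probe gave -0.33. Classical cadherins and catenins were all measured, 5 with positive and 5 with negative fold changes among 10 genes, and 0 passed. Ctnna2, the neural alpha-catenin, had -1.22 (interval -2.47 to 0.03), and the cadherin Cdh11 had -0.63 (interval -1.94 to 0.69). Ctnna2, with KO lower, and Ctnna1 and Ctnnb1, with KO higher, did not overlap, 3 of 10 against the same 9.82%. The fold change of Ctnna1 was 0.08, and the other Ctnnb1 probes gave 0.53 and -0.28. The limma adjusted p of Setdb1, Stag1, Pdcd10, Psen2, Ctnna2 and Cdh11 was 0.989.

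Of 10 neuronal markers 5 were measured. Tubb3, Elavl3, Elavl4 and Isl1 were detected on all 6 arrays, Dcx, Nefl and Nefm on no array, and the summed intensity of the measured ones was 694 to 796 in WT and 569 to 715 in KO. Blood markers, 6 of 9 measured, summed to 5217 to 11538 in WT and 5741 to 10226 in KO. Klf1, an erythroid factor named after its values were seen, was detected on all 3 WT and 0 KO arrays, while the other 5 measured blood markers, Hba-x, Hbb-bh1, Hba-a1, Alas2 and Tal1, were each detected on all 6. The part of blood or of any adjoining tissue in the Pcdhb3 signal was not tested.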

How the data were processed

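Lens ectoderm RNA of 3 WT and 3 KO samples was measured on Illumina bead arrays of 46632 probes, all on 1 slide. Per the file headers, the deposited table gave each probe's mean bead intensity, standard error over beads, bead number (a count, 5 to 102) and detection p-value on each array. The deposited intensity was linear and not normalized between arrays. The submitters' processing notes name GenomeStudio. The deposited series matrix held background-subtracted linear intensity values, with values below 0, in the rank order of the same arrays (rank correlation 1, column medians 18.51 to 18.54). Its scale and direction were read from that order, and no source used here names its method.

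The neqc function (limma 3.58.1, R 4.3.3) removed background using control levels it infers from detection p-values, added an offset of 16, applied quantile normalization and took log2. The 20959 probes with a detection p below 0.05 on at least 3 of 6 arrays were fitted as KO minus WT (lmFit, eBayes with trend), two-sided, with Benjamini-Hochberg adjustment over all of them. Undetected values entered as measured, and fold changes of dim probes are compressed by the offset. The fit was tested on simulated data. Fold changes in the text are log2, KO minus WT, with 95% intervals. Probes were named from the platform table, in which 29976 had 1 symbol, 10 several and 16646 none. All 58 member probes matched the current gene table (GRCm38.p6), used for gene order only. For the lists, a gene stands for its tested probe with the highest mean.

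The members and lists were chosen with earlier results of these data known. Every tested member is named with all arrays, members detected on 1 or 2 arrays by lowest detection p, and 2 genes per pathway list by largest absolute fold change. Marker lists are given by sums and counts, and the marker genes named, and list genes named only for not overlapping, were picked after their values were seen. Pcdhgb5, Pcdhgb7, Pcdhga4, Pcdhga6, Pcdhga7, Pcdhga10, Pcdhgc4, Pcdhb10 and Pcdhb12 were each detected on 1 or 2 arrays. The replicate numbers shared by the genotypes were not used to pair the samples in the main fit. Same-numbered deviations correlated at 0.106, 0.136 and -0.008, and differently numbered ones at -0.194 to 0.125. These values cannot tell whether the samples were paired.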

Additional observations from a re-analysis of the deposited data

How the results depend on the processing

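The results rest on 3 arrays per genotype, and most members lie close to background. The 0 calls, over all tested probes and among the members, stayed 0 under every alternative run: a replicate block, an offset of 50, no background correction, the series matrix values, median scaling, detection on all 6 arrays, no filter, array weights, no variance trend, and leaving out each array. In this balanced design a replicate block cannot move a fold change (median of the members -0.12), and it gave 986 probes with an unadjusted p below 0.05, against 941. Without each array in turn this median ranged from -0.24 to 0.065, and the probes detected on some arrays only from 22 to 25. At a detection p below 0.01 in place of 0.05 those fell from 25 to 6, and detections over the 6 arrays from 79 to 31. The fitted Pcdhb3 difference of -1.21 rests on undetected KO arrays and depends on the scale, with -0.80 at an offset of 50 and -1.03 without background correction, and the bound of at least 2.01-fold was computed only at the offset of 16. With array weights the sign turned for Pcdha5 (ILMN_2677651, to -0.063), Pcdhgb2 (to 0.13) and Pcdhgc3 (to -0.029). Of 84 member values without an array, 13 changed sign, within the ranges -0.21 to 0.28 (Pcdha5, ILMN_2677651), -1.28 to 0.12 (Pcdhac1), -0.34 to 0.056 (Pcdhb14), -0.28 to 0.23 (Pcdhb22), -0.53 to 0.37 (Pcdhgb2), -0.50 to 0.21 (Pcdhgb4), -0.045 to 0.19 (Pcdhgc3) and -0.69 to 0.085 (Pcdhgc5). The causes were not tested.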
